A study of Homo sapiens with 15 samples.

Results

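Transcripts of 9 genes were followed in PSN-1 cells, an established human line of pancreatic ductal adenocarcinoma (PDAC): the interleukin 1 genes IL1A and IL1B and the chemokine genes CCL20, CXCL1, CXCL2, CXCL3, CXCL5, CXCL8 and CXCL16. They were found by gene symbol, and all 9 were present among the 26485 genes counted by RNA-seq in 15 libraries. In the siRNA experiment, cells received siRNA against MondoA (siMondoA, which targets the gene MLXIP), siRNA against its DNA-binding partner MLX (siMLX) or a control siRNA (siControl). In the drug experiment, cells received SBI-477, described in the labels as an inhibitor of MondoA, or its vehicle DMSO. Each of the 5 groups held 3 libraries, all cells were in RPMI with serum, and all treatments lasted 72 hours. The question was which transcripts change when MondoA is depleted or inhibited.

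Several limits belong to this model. It is 1 cell line, the siRNA sequences and the SBI-477 dose are not given in the sources used here, and no rescue group was included. No label states that replicates came from separate cultures, so the p-values cover only library-to-library spread, possibly technical in part. The siMondoA and siMLX groups are set against the same siControl libraries, so their comparisons are not independent. In bulk RNA, fewer cells that express a gene and less RNA per cell cannot be told apart.

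Interleukin 1 alpha and beta bind the same receptor, IL1R1 with IL1RAP, and signal through MYD88 and IRAK kinases to NF-kB and AP-1, the transcription factors that switch on many cytokine genes. Interleukin 1 alpha is active as a precursor and acts as an alarm signal when cells are damaged, whereas interleukin 1 beta is cut to its active form, most often by caspase 1. CXCL1, CXCL2, CXCL3, CXCL5 and CXCL8 are neutrophil attractants that act on CXCR2, and CXCL8 also on CXCR1. CCL20 attracts cells that carry CCR6, such as Th17 cells and immature dendritic cells. CXCL16 is made as a membrane protein, binds CXCR6 and is shed by ADAM10 and ADAM17. In pancreatic cancer these factors are known mainly for bringing myeloid cells into the tumour.

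Most of the CXCL genes lie together. CXCL8, CXCL1, CXCL5, CXCL3 and CXCL2 sit within 358788 bases of chromosome 4 in GENCODE v29 (build GRCh38), at chr4:73740506-73743716 (plus strand), chr4:73869393-73871242 (plus), chr4:73995642-73998779 (minus), chr4:74036589-74038807 (minus) and chr4:74097035-74099293 (minus). IL1A, at chr2:112773915-112784590, and IL1B, at chr2:112829751-112836903, are both on the minus strand and 45160 bases apart. CCL20 is farther along the same chromosome at chr2:227805739-227817564 (plus), and CXCL16 is alone at chr17:4733526-4739922 (minus).

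Promoter sequence from RefSeq (GRCh38.p14), running 250 bases before to 50 after each start, was held for 8 of the 9 genes; CXCL16 had no entry. The NF-kB site form GGAATTTCC, searched on both strands, was in the promoters of CXCL1, CXCL2, CXCL3, CXCL5 and CXCL8, 5 of 8, and in 0.461% of 35116 promoters. A longer form, GGG and TTTCC around 2 free bases, was in 1.91% of promoters and in 5 of 8 here: in CXCL1, CXCL2, CXCL3 and CXCL5 it overlaps the first form, and in CCL20 it is read on the opposite strand. The 6 windows below are shown because they let these sites be compared between the genes that hold them. They do not include CXCL16, which had no entry. Each runs 5′ to 3′ on the strand of the gene, with 36 bases on either side of the match, which is in capitals.
CXCL8, chr4:73740442-73740522 (+): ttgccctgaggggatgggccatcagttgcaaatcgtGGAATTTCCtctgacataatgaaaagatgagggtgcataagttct
CXCL1, chr4:73869279-73869359 (+): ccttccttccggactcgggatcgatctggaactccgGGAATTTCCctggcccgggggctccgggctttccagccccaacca
CXCL3, chr4:74038723-74038803 (-): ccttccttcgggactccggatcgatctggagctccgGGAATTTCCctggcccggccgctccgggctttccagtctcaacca
CXCL2, chr4:74099228-74099308 (-): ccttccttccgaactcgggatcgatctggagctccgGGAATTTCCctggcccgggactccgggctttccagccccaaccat
CXCL5, chr4:73998723-73998803 (-): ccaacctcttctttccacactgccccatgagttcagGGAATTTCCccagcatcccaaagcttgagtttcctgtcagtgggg
CCL20, chr2:227813727-227813808 (+): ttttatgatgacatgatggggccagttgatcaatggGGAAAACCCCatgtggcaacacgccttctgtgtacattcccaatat

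The match begins 77 to 91 bases before the RefSeq start in these 6 windows. Without gaps, the CXCL1 and CXCL3 windows are identical at 91.4% of positions and the CXCL1 and CXCL2 windows at 79.0%, whereas the pairs that involve CXCL5 or CXCL8 reach 27.2% to 45.7%. The AP-1 site form TGANTCA was in the promoters of IL1A and CXCL8, 2 of 8, and in 7.71% of all promoters. The E-box CACGTG, a form bound by MYC and MondoA dimers, was in none of the 8 windows and in 7.26% of all promoters. A match is a description of letters, and a window without one says nothing about a factor. The motifs were chosen with earlier results of these data known.

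Whole libraries set some limits on the values. Total counts were 11227343 to 14731691 per siRNA library and 23315440 to 30480362 per drug library. The targets moved as labelled: MLXIP was at 15.7 to 23.4 CPM (counts scaled to a library of fixed size, adjusted by TMM) in siMondoA and 65.8 to 88.6 CPM in siControl, and MLX at 7.15 to 11.9 CPM in siMLX and 53.0 to 58.8 CPM in siControl. Epithelial markers (6 genes) summed to 1657 to 1991 CPM in siMondoA, 1941 to 2457 CPM in siMLX and 1874 to 2795 CPM in siControl. Fibroblast markers (6 genes) summed to 135 to 217 CPM in siMondoA, 226 to 354 CPM in siMLX and 234 to 314 CPM in siControl, so that siMondoA lay below siControl without overlap, and 3 endothelial markers to 14.7 to 20.8 CPM in siMondoA, 9.37 to 14.1 CPM in siMLX and 13.3 to 18.2 CPM in siControl. Of 9 leukocyte markers, FCGR3B, CD3E and MS4A1 were at 0 in every library, and the list summed to 72.7 to 93.3 CPM in siMondoA, 70.2 to 101 CPM in siMLX and 57.0 to 69.5 CPM in siControl. The part of the leukocyte and fibroblast marker shifts in the results below was not tested.

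A pair of library problems bears on the results. First, siMLX replicate 2 stood apart from replicates 1 and 3: the median of 6 stress-response genes (ATF4, DDIT3, CHAC1, TRIB3, ASNS and SESN2) was 3.82 log2 units above the siControl mean there, against -0.04 and 0.28 in the others. Second, the drug libraries numbered 2 ran against their labels. The authors' deposited table of drug fold changes was matched best by a refit in which SBI-477 replicate 2 and DMSO replicate 2 change places, with a median absolute difference of 0.00446 on the log2 scale over 13086 genes, against 0.195 with the labels as given and 0.125 for the next best of 9 exchanges. Libraries keep their labels throughout, and the results that rest on these libraries are given with and without them.

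In unperturbed cells the 9 genes covered a wide range. On the scale of CPM per kilobase of annotated exon, siControl cells had CXCL1 at 28.9 ± 13.5, CXCL8 at 24.9 ± 12.6 and IL1B at 20.7 ± 6.02 (SD, n = 3), and these levels did not differ beyond their spread. CXCL16 at 4.56 ± 0.486 and CXCL2 at 3.85 ± 1.12 formed the next step, followed by IL1A at 1.07 ± 0.252 and CXCL3 at 1.04 ± 0.656. CXCL5 at 0.399 ± 0.316 and CCL20 at 0.182 ± 0.0841 CPM per kilobase were lowest. Annotated exon joins all transcripts of a gene, so the order of close levels depends on the length used. CXCL3 has 2219 such bases but 1075 in its longest coding transcript, and IL1A has 2124 in both. DMSO cells of the other experiment, which was run and deposited apart, had IL1B highest at 50.9 ± 29.7, then CXCL8 at 6.51 ± 2.91 and CXCL1 at 5.43 ± 2.50 CPM per kilobase. The difference between siControl and DMSO was not tested.

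**Figure D1:**
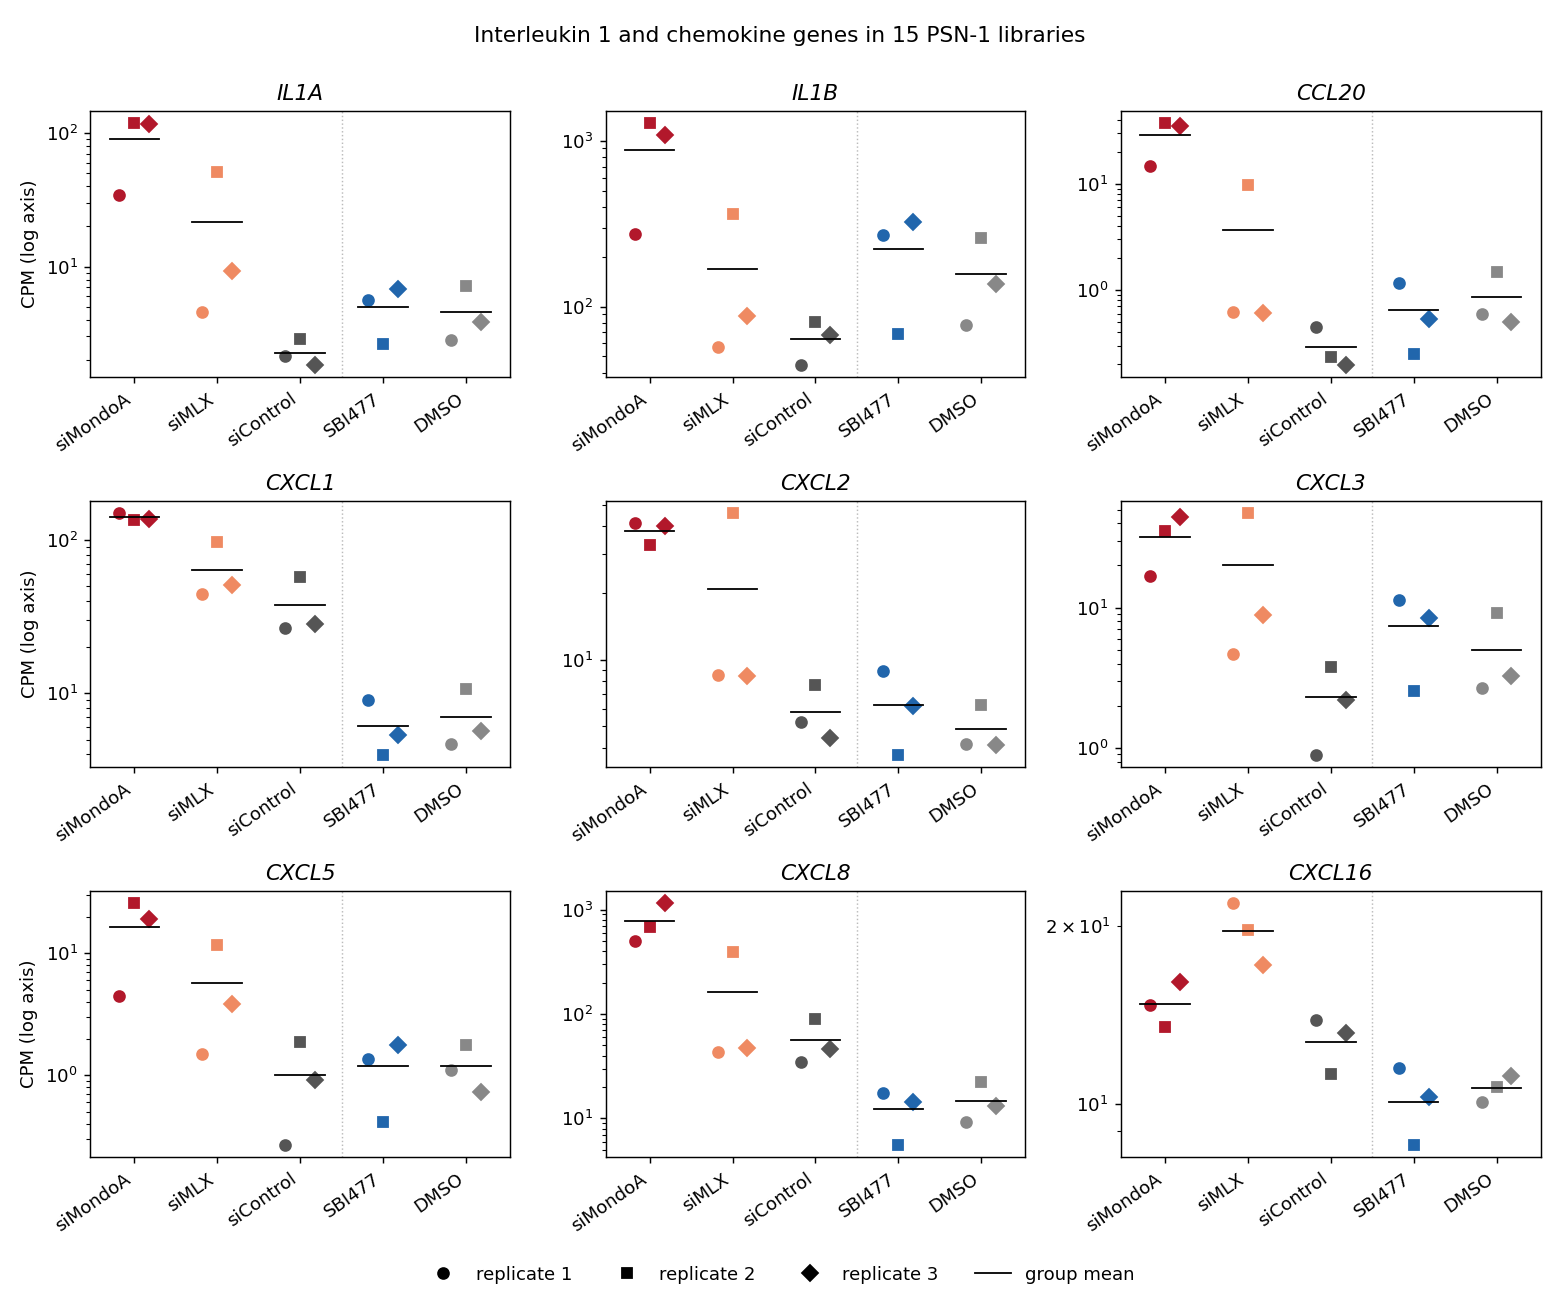
Level of each gene in every library, as CPM on a log axis; circles, squares and diamonds are replicates 1, 2 and 3, and bars are group means. In 8 of the 9 panels all siMondoA libraries lie above all siControl libraries, CXCL16 being the exception, and siMLX replicate 2 lies above the other siMLX libraries for every gene but CXCL16.

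Both interleukin 1 genes and 6 of the 7 chemokine genes rose after depletion of MondoA. edgeR's quasi-likelihood test, with p-values adjusted over all genes and a threshold of 0.05, called 8 of the 9 genes higher in siMondoA than in siControl. Over the 13001 genes tested, 27.2% were called and 14.2% were called higher. The same 8 genes had no overlap between the groups' libraries, which 24.4% of all genes tested showed in that direction. The median log2 fold change of the 9 genes was 3.78, beside 0.00 for all genes. The 9 genes were chosen with earlier results of these data known. Their counts beside those of all genes are thus a description and no test of the set. All 8 calls held in each of the 9 fits that left out 1 siRNA library, and only CXCL16 was not called in any of them.

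IL1A was at 34.4, 119 and 118 CPM in siMondoA, against 2.13, 2.87 and 1.82 CPM in siControl. Its log2 fold change was 5.31 ± 0.90 (SE; edgeR adjusted p = 0.00316). IL1B was far more abundant, at 276, 1281 and 1092 CPM in siMondoA and 44.2, 81.2 and 66.9 CPM in siControl, with a log2 fold change of 3.78 ± 0.74 (adjusted p = 0.00603). For both genes siMondoA replicate 1 was the lowest of its group and still above every siControl library. The count of IL1B per count of IL1A was 8.03 to 10.8 in siMondoA libraries and 20.8 to 36.7 in siControl libraries, without overlap.

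CCL20, the ligand of CCR6, had the largest log2 fold change of the 9, 6.64 ± 1.08 (edgeR adjusted p = 0.00272). It was at 14.6, 37.3 and 34.9 CPM in siMondoA and 0.444, 0.232 and 0.195 CPM in siControl. The siControl values rest on 5, 3 and 3 reads. The low-count filter asks 0.777 CPM of 3 libraries, which 3 siMondoA, 1 siMLX and 0 siControl libraries reached. The gene thus entered the test through siMondoA, the group where it is high. Summed over libraries, 1092 against 11 reads gave a depth-adjusted ratio of 104 (exact 95% interval 57.6 to 208, counting error only).

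CXCL8, interleukin 8, reached 502, 685 and 1157 CPM in siMondoA, against 34.6, 88.9 and 46.3 CPM in siControl. Its log2 fold change was 3.79 ± 0.82 (edgeR adjusted p = 0.00958), and per kilobase it was the most abundant of the 9 genes in siMondoA cells, at 344 ± 149 CPM per kilobase beside 285 ± 173 for IL1B (SD, n = 3). These 2 levels did not differ beyond their spread, and their order depends on the length used. Annotated exon is 3096 bases for IL1B and 2274 for CXCL8, whereas the longest coding transcripts are 1631 and 1705 bases. Without any length, IL1B was higher, at 883 ± 534 CPM beside 781 ± 338 CPM for CXCL8 (SD, n = 3). CXCL1, a classical neutrophil attractant, was even across siMondoA at 149.5, 135 and 137 CPM, and at 26.6, 57.6 and 28.2 CPM in siControl. It had the smallest log2 fold change among the called genes, 1.90 ± 0.33 (adjusted p = 0.00381).

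CXCL2 was at 41.1, 33.0 and 40.1 CPM in siMondoA and 5.24, 7.67 and 4.43 CPM in siControl (log2 fold change 2.72 ± 0.59, edgeR adjusted p = 0.00951). CXCL3 was at 16.9, 35.1 and 44.2 CPM in siMondoA and 0.888, 3.80 and 2.22 CPM in siControl (3.78 ± 0.84, adjusted p = 0.0102). Both are close relatives of CXCL1. CXCL5 was at 4.45, 25.8 and 19.3 CPM in siMondoA and 0.266, 1.86 and 0.912 CPM in siControl, a log2 fold change of 3.99 ± 0.87 (adjusted p = 0.00958). The lowest siMondoA library, replicate 1, was 4.45 CPM for CXCL5 and the highest siControl library 1.86 CPM.

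CXCL16, the membrane-bound ligand of CXCR6, did not pass the test. It was at 14.7, 13.5 and 16.1 CPM in siMondoA and 13.9, 11.2 and 13.2 CPM in siControl, so the groups overlapped. The log2 fold change was 0.21 ± 0.15 (edgeR adjusted p = 0.313).

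CXCL1, CXCL2 and CXCL3 are similar enough that reads of 25 bases can be shared. Of the 25-base words in the longest coding transcript, 27.1% in CXCL2, 21.5% in CXCL1 and 12.2% in CXCL3 occur in another annotated gene, and CXCL1 and CXCL2 share 221 words. The reads were paired, so a mate lying elsewhere may still place such a read, which these shares do not count. The longest run common to the coding sequences of all 3 is bases 189 to 243 of 321 in CXCL1. It is printed from GENCODE v29 because a read inside it cannot, by itself, be placed in 1 of the genes.
CXCL1, CXCL2 and CXCL3: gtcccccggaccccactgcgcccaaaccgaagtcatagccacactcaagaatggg
With the 3 genes summed and tested as 1, the log2 fold change was 2.21 ± 0.43 in siMondoA against siControl (edgeR adjusted p = 0.00598). CXCL3 made up 8.16% to 20.01% of their summed counts in siMondoA libraries and 2.71% to 6.36% in siControl libraries, so the groups did not overlap in their mix. CXCL5 shares 77 words with CXCL6 and 115 with GLYR1, and CXCL16 shares 12.2% of its words with 4776 other genes. IL1A and CCL20 share none, and IL1B and CXCL8 share 0.311% and 0.119%.

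**Figure D2:**
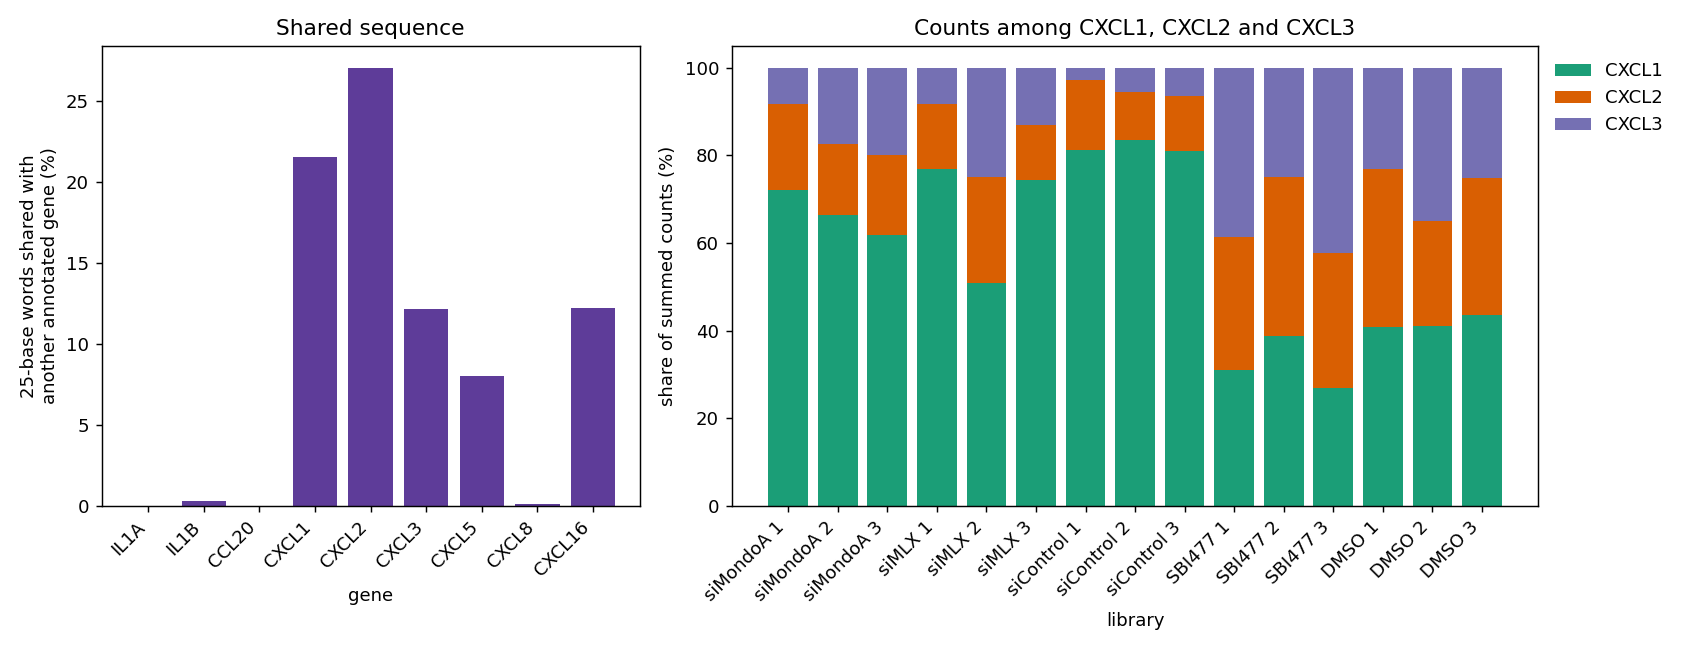
Left, percent of the 25-base words of each gene's longest coding transcript found in another annotated gene; CXCL2 is highest at 27.1% and IL1A and CCL20 are at 0. Right, shares of the summed counts of CXCL1, CXCL2 and CXCL3 in each library; CXCL3 holds 8.16% to 20.01% in siMondoA and 2.71% to 6.36% in siControl.

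Depletion of MLX, measured against the same siControl libraries, moved fewer of these genes past the test. edgeR called IL1A, CXCL3 and CXCL16 higher in siMLX, 3 of 9, where 8.41% of all genes were called and 3.72% called higher. In 5 of the 9 the libraries did not overlap, which 16.5% of all genes showed in that direction. The median log2 fold change of the 9 was 1.86, beside 0.02 for all genes. Without siMLX replicate 2 none of the 9 was called by edgeR, while 6.27% of all genes were. The DESeq2 Wald test called 3 with all libraries, without giving a p for IL1A. The share of all genes called by that test is not given. At an unadjusted p under 0.05, edgeR had 7 of the 9 with all libraries, beside 26% of all genes, and 4 of the 9 without siMLX replicate 2, beside 23.9% of all genes.

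IL1A was at 4.60, 51.0 and 9.29 CPM in siMLX and 2.13, 2.87 and 1.82 CPM in siControl. The log2 fold change of 3.26 ± 0.87 (edgeR adjusted p = 0.0456) became 1.63 ± 0.58 (adjusted p = 0.121) without siMLX replicate 2. CXCL3 was at 4.68, 47.2 and 8.91 CPM in siMLX, against 0.888, 3.80 and 2.22 CPM in siControl, and its 3.12 ± 0.83 (adjusted p = 0.0451) became 1.55 ± 0.53 (adjusted p = 0.107). Replicate 2 was the highest siMLX library for both genes, and replicates 1 and 3 still lay above all siControl libraries. Both calls were also lost without siMLX replicate 3, without siMondoA replicate 3 and without any 1 of the siControl libraries, and that of CXCL3 with only the 6 siMLX and siControl libraries in the fit (adjusted p = 0.0533).

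CXCL16 was at 21.8, 19.7 and 17.1 CPM in siMLX and 13.9, 11.2 and 13.2 CPM in siControl, with replicate 2 in the middle of its group and no overlap. The log2 fold change was 0.62 ± 0.15 (edgeR adjusted p = 0.0329) with all libraries and 0.61 ± 0.17 (adjusted p = 0.0599) without siMLX replicate 2. Its adjusted p also rose above 0.05 when siMLX replicate 1 or any siControl library was left out, with a highest value of 0.128.

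The 6 genes that were not called in siMLX had positive log2 fold changes with wide errors. CCL20 was at 0.619, 9.68 and 0.609 CPM in siMLX and 0.444, 0.232 and 0.195 CPM in siControl (3.67 ± 1.20, edgeR adjusted p = 0.0853). CXCL8 was at 43.1, 395 and 47.7 CPM in siMLX and 34.6, 88.9 and 46.3 CPM in siControl (1.52 ± 0.76, adjusted p = 0.236). Replicate 2 alone stood clear of siControl for CXCL8, and without it the value was -0.32 ± 0.39 (adjusted p = 0.672). IL1B was at 57.2, 364 and 87.5 CPM in siMLX and 44.2, 81.2 and 66.9 CPM in siControl (1.40 ± 0.68, adjusted p = 0.222), and 0.17 ± 0.50 without replicate 2.

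For CXCL1 the siMLX libraries were at 44.1, 96.4 and 50.6 CPM, overlapping the 26.6 to 57.6 CPM of siControl (0.77 ± 0.33, edgeR adjusted p = 0.172). CXCL2 was at 8.48, 45.8 and 8.45 CPM in siMLX, all above the 4.43 to 7.67 CPM of siControl (1.86 ± 0.59, adjusted p = 0.0761). CXCL5 was at 1.50, 11.8 and 3.81 CPM in siMLX and 0.266 to 1.86 CPM in siControl (2.47 ± 0.89, adjusted p = 0.110). The siMLX and siControl libraries with the same number deviated together (r = 0.27, 0.19 and 0.36 over genes). With the replicate number as a block, edgeR called 5 of the 9 and 14% of all genes. The 2 added genes were CCL20 (3.39 ± 0.97, adjusted p = 0.0463) and CXCL5 (2.43 ± 0.31, adjusted p = 0.00189). CCL20 passed the low-count filter of this fit only through its siMondoA libraries.

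**Figure D3:**
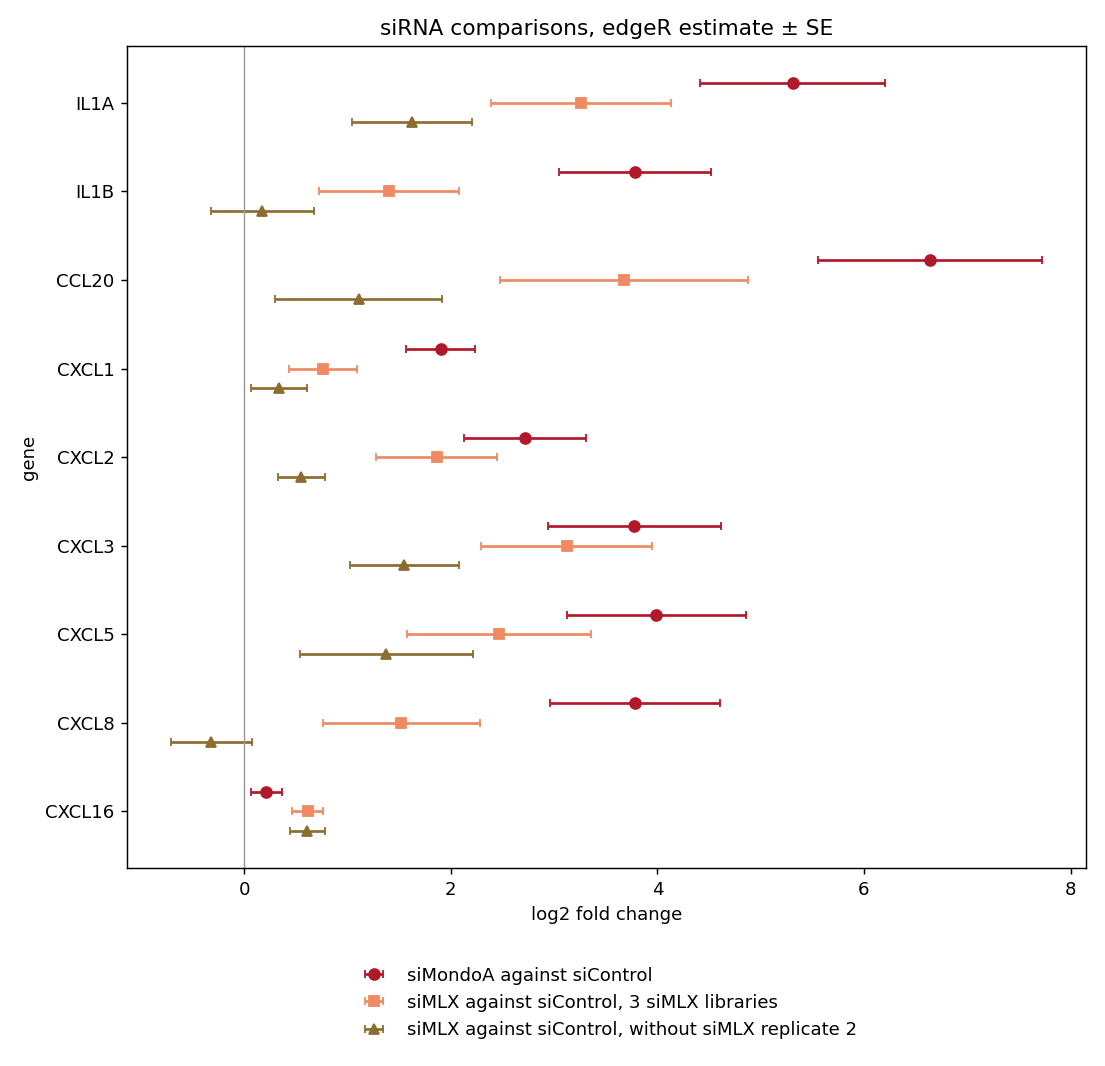
Log2 fold change with its SE for each gene: siMondoA against siControl (circles), siMLX against siControl with 3 siMLX libraries (squares) and without siMLX replicate 2 (triangles). CCL20 and IL1A lie farthest right in siMondoA at 6.64 and 5.31, and leaving out siMLX replicate 2 moves CXCL8 to -0.32 while CXCL16 stays near 0.61.

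Set directly against each other, siMondoA exceeded siMLX for IL1B, CCL20 and CXCL1. These were 3 of 9 calls, where 12.9% of all genes were called and 6.66% called higher. The log2 fold changes were 2.38 ± 0.69 for IL1B (edgeR adjusted p = 0.0477), 2.97 ± 0.78 for CCL20 (adjusted p = 0.0320) and 1.14 ± 0.33 for CXCL1 (adjusted p = 0.0447). CCL20 entered this fit through siMondoA, the group where it is high. CCL20, CXCL1 and CXCL8 had every siMondoA library above every siMLX library, which 14.9% of all genes showed, and CXCL16 had every siMondoA library below every siMLX library, which 15.3% of all genes showed in that direction. Neither CXCL8 (2.27, adjusted p = 0.0770) nor CXCL16 (-0.40 ± 0.15, adjusted p = 0.0968) passed the test. Without siMLX replicate 2 edgeR called 8 of the 9 higher in siMondoA, with 22.5% of all genes called, and CXCL16 again was not among them. With only the 6 siMondoA and siMLX libraries in the fit edgeR called none, 6 of the 9 having an unadjusted p under 0.05 beside 25.7% of all genes. None was called either without siMLX replicate 1 or 3, without siMondoA replicate 2 or 3 or without siControl replicate 1 or 3, where 5 or 6 of the 9 and 23% to 28.7% of all genes had such a p, and 1 was called without siControl replicate 2. The DESeq2 Wald test with all libraries called 3, and the share of all genes called by that test is not given.

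Among the siRNA libraries, the 4 with the highest stress-response genes were also the 4 with the highest interleukin 1 and chemokine genes. The median of the 6 stress genes was 2.60, 3.84 and 3.60 log2 units above the siControl mean in siMondoA, -0.04, 3.82 and 0.28 in siMLX and -0.12, 0.23 and -0.16 in siControl. The median of the 9 interleukin 1 and chemokine genes, on the same scale, was 2.84, 4.04 and 4.33 in siMondoA, 0.77, 2.99 and 0.57 in siMLX and -0.40, 0.44 and -0.17 in siControl. These 4 were the siMondoA libraries and siMLX replicate 2, and the order of siMondoA replicates 2 and 3, and of siMLX replicates 1 and 3, differed between the 2 medians. In the drug libraries the order differed within both groups: relative to the DMSO mean the stress median was -0.49, -0.18 and -0.21 with SBI-477 and 0.05, 0.15 and -0.15 with DMSO, and the median of the 9 genes was 0.45, -0.75 and 0.37 with SBI-477 and -0.49, 0.70 and -0.21 with DMSO. All 6 stress genes were called higher in siMondoA than in siControl, beside 14.2% of all genes, and none in siMLX, beside 3.72%. The stress genes too were chosen with earlier results of these data known. In the 9 fits that left out 1 siRNA library, ATF4, DDIT3 and SESN2 kept the siMondoA call in all 9. CHAC1 and TRIB3 kept it in 6 and ASNS in 4. The siMLX estimates that did not pass were positive, from 0.70 ± 0.28 for ATF4 (edgeR adjusted p = 0.139) to 5.21 ± 1.55 for CHAC1 (adjusted p = 0.0644). Whether the stress genes have a part in the change of the interleukin 1 and chemokine genes was not tested.

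**Figure D4:**
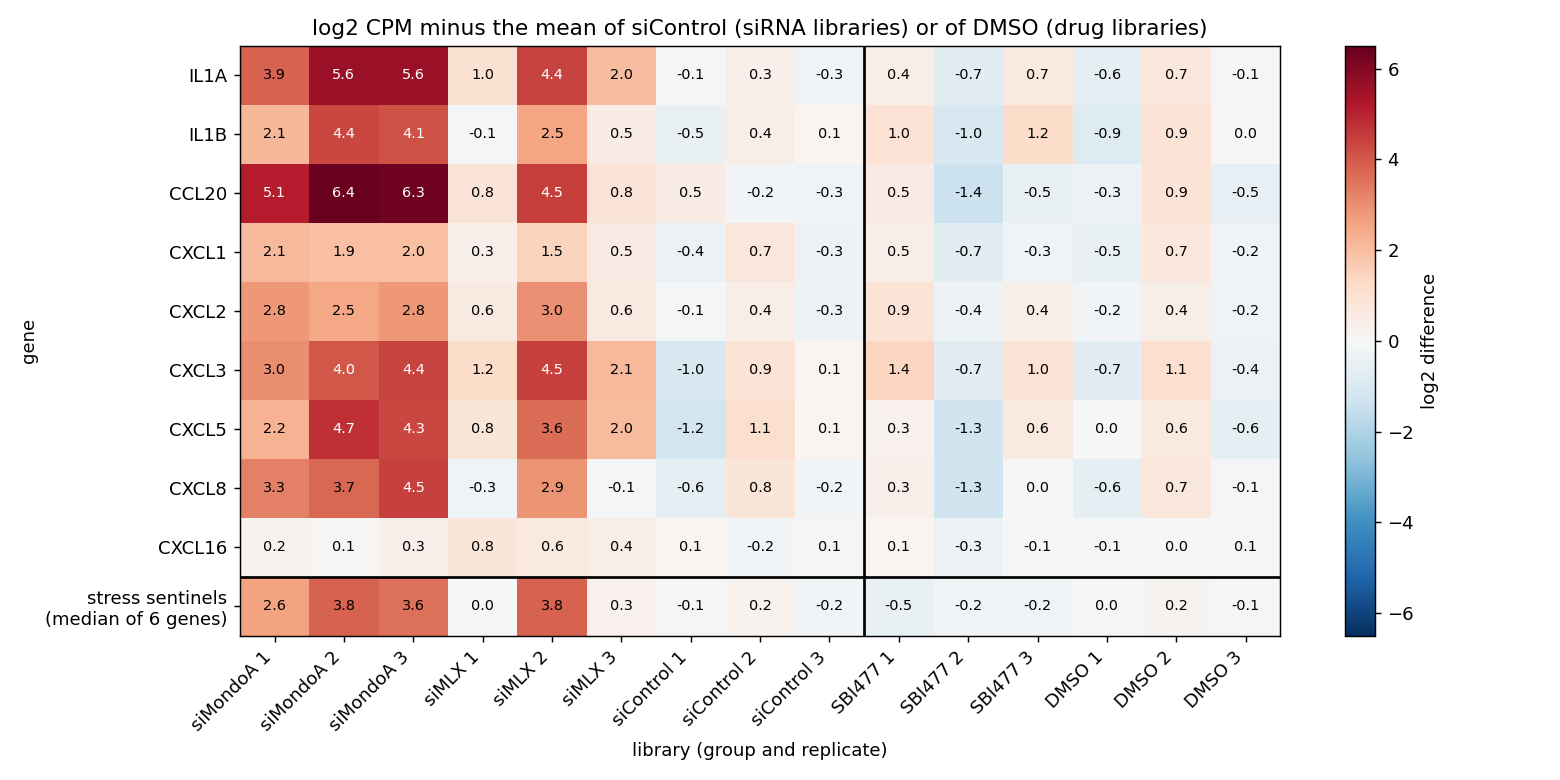
Log2 CPM of each gene in each library minus the mean of siControl (siRNA libraries) or of DMSO (drug libraries), with the median of the 6 stress-response genes in the lowest row. The siMondoA libraries and siMLX replicate 2 are high in both, whereas among the drug libraries SBI-477 replicate 2 is the lowest of its group for every gene.

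The genes with the most similar course over the 9 siRNA libraries were found by the root mean square (RMS) difference in log2 CPM, each gene being set to 0 at its siControl mean, among the 10860 genes that averaged 4 CPM or more. Nearest to CCL20 were IL1A (RMS 0.71), GAB2 (0.84), an adaptor of receptor signalling, and CHAC1 (0.96), an enzyme that degrades glutathione. Nearest to IL1A were GAB2 (0.52), SLC7A11 (0.62), the cystine transporter, and CCL20. For CXCL8 they were DDIT3 (0.48), a stress-response transcription factor, GDF15 (0.52), a secreted stress cytokine, and IL1B (0.53).

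Genes of the same pathway were followed as lists, chosen with earlier results of these data known. Their counts beside the share of all genes are descriptive. Of 8 NF-kB feedback genes, 6 were called higher in siMondoA than in siControl and none lower, beside 14.2% of all genes called higher, with a median log2 fold change of 1.20 beside 0.00 for all genes. TNFAIP3, which edits ubiquitin to damp NF-kB, was at 54.2, 38.9 and 59.4 CPM in siMondoA and 8.43, 14.2 and 11.4 CPM in siControl (2.16 ± 0.44, edgeR adjusted p = 0.00752). BIRC3, a ubiquitin ligase of the TNF receptor complex, was at 47.4, 29.1 and 47.9 CPM in siMondoA and 9.94, 11.1 and 6.97 CPM in siControl (2.16 ± 0.26, adjusted p = 0.000609). The groups did not overlap for either gene. NFKBIE (0.95) and NFKB2 (1.45) also rose, and these 4 held with each siRNA library left out. NFKB1 and RELB, also called, kept the call in 5 and 4 of these 9 fits.

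In siMLX 1 of the 8 NF-kB feedback genes, BIRC3, was called, beside 8.41% of all genes, and it was lower. It was at 4.15, 5.61 and 3.27 CPM in siMLX and 9.94, 11.1 and 6.97 CPM in siControl (-1.09 ± 0.28, edgeR adjusted p = 0.0378), without overlap. The call was lost in 5 of the 9 fits that left out 1 library, with adjusted p-values up to 0.134. The difference between siMondoA and siMLX was called in all 9 of these fits for BIRC3, and its log2 size with all libraries was 3.25 ± 0.27 (adjusted p = 0.000274). Of the 8 genes in this list, 5 were called higher in siMondoA than in siMLX, beside 6.66% of all genes. With 1 library left out, BIRC3 and NFKB1 kept this call in all 9 fits, NFKBIA in 8, NFKB2 in 5 and TNFAIP3 in 4.

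Of the IL-1 family ligands other than the pair above, 2 of 9 were expressed enough to test. IL33, a nuclear alarm cytokine, was at 167, 559.9 and 398 CPM in siMondoA and 33.7, 106 and 75.8 CPM in siControl (2.38 ± 0.60, edgeR adjusted p = 0.0166), and the call was lost without siMondoA replicate 2 and without siControl replicate 1 or 3. The antagonist IL1RN was at or under 0.266 CPM in every siRNA library. Of 6 receptor genes tested, IL1R1 (0.70 ± 0.20, adjusted p = 0.0261), its partner IL1RAP (0.85 ± 0.13, adjusted p = 0.00243) and the IL33 receptor IL1RL1 (3.51 ± 0.58, adjusted p = 0.00294) were called higher in siMondoA. Over all genes tested, 14.2% were called higher in that comparison. IL1R1 was lost in 4 of the 9 fits that left out 1 library. In siMLX, IL1RAP (1.02 ± 0.13, edgeR adjusted p = 0.00273) held in all 9 such fits. IL1RL1 and SIGIRR, also called higher in siMLX, held in only 4 and 2 of these fits. Leaving out siMLX replicate 2, siMLX replicate 3 or any siControl library removed both calls.

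Downstream of the receptor, 3 of 12 signalling genes were called higher in siMondoA, beside 14.2% of all genes called higher and 27.2% called in either direction. Of these 3, PELI1, a ubiquitin ligase, held in all 9 fits that left out 1 library (0.79 ± 0.18, edgeR adjusted p = 0.0111), while TAB2 and TAB3 did not. Of 7 genes that control the decay of cytokine mRNA, 2 were called, and ZFP36 (1.26 ± 0.19, adjusted p = 0.00181) and the ribonuclease gene ZC3H12A (1.28 ± 0.27, adjusted p = 0.00781) were both higher in siMondoA. ZFP36 was also called higher in siMLX (1.22 ± 0.19, adjusted p = 0.00516). ADAM17, a protease that sheds CXCL16, was the only one of 8 processing and shedding genes called in siMondoA (1.00 ± 0.25, adjusted p = 0.0156), and was lost in 4 of the 9 fits.

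Of 32 other chemokine genes listed, 5 were expressed enough to test. In siMondoA none of them was called higher by edgeR with all libraries, and CX3CL1, the CX3CR1 ligand, was called lower (-1.77 ± 0.41, edgeR adjusted p = 0.0121). Over all genes tested in that comparison, 14.2% were called higher and 27.2% in either direction, so 1 call among 5 is near that share. CCL26, a CCR3 ligand, was called higher in siMLX (1.48 ± 0.21, adjusted p = 0.00400), where its libraries were at 11.0, 8.76 and 9.90 CPM against 3.29, 3.95 and 3.32 CPM in siControl, and was 0.62 ± 0.22 in siMondoA (adjusted p = 0.0574). CXCL6, a close relative of CXCL5 and a CXCR2 ligand, was at 141 ± 20.2 CPM in siMondoA and 72.3 ± 33.9 CPM in siControl (SD, n = 3; 0.96 ± 0.33, adjusted p = 0.0552). Without siMLX replicate 2, which enters the shared spread, CXCL6 was called higher in siMondoA than in siControl (0.96 ± 0.26, adjusted p = 0.0177) and CCL2 lower (-1.53 ± 0.41, adjusted p = 0.0175). The receptor genes CXCR1, CXCR2 and CCR6 were scarce, whereas IL1R1 and IL1RAP were expressed enough to test. CXCR6, the receptor of CXCL16, was expressed enough to test in the drug fit but not in the siRNA fit. CXCR1 was at 0 in all 15 libraries, CXCR2 at 0 in 13 of them, and CCR6 stayed at or under 0.177 CPM, at or below the 3-read floor except in 1 drug library. Of the 3 chemokine receptors tested in siMondoA, beside 27.2% of all genes called, CCR1 was called higher (2.99 ± 0.65, edgeR adjusted p = 0.00978). CXCR4 was called lower (-1.66 ± 0.50, adjusted p = 0.0338), a call lost in 5 of the 9 fits.

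With the drug libraries as labelled, none of the 9 genes was called between SBI-477 and DMSO by edgeR. Neither was any of the 14023 genes tested (0%), although 409 genes had an unadjusted p under 0.05, and none of the 9 did; the DESeq2 Wald test called none either. No gene of the 9 had groups without overlap, which 4.77% of all genes showed as higher and 4.49% as lower. The median log2 fold change was -0.00 over the 9 genes and -0.01 over all genes. IL1B was at 271, 68.5 and 324 CPM with SBI-477 and 77.4, 258 and 137 CPM with DMSO, and CXCL3 at 11.3, 2.54 and 8.40 CPM with SBI-477 and 2.66, 9.12 and 3.28 CPM with DMSO. In each gene the SBI-477 library numbered 2 was the lowest of all 6 and the DMSO library numbered 2 was the highest DMSO library. SBI-477 replicate 2 was the lowest of its group for all 9 genes, and DMSO replicate 2 the highest of its group for all but CXCL16.

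Without the libraries numbered 2, 4 of the 9 genes were called higher with SBI-477, where 18.1% of 14232 genes were called. Each group then had 2 libraries. CXCL3 had a log2 fold change of 1.73 ± 0.22 (edgeR adjusted p = 0.00178), IL1B 1.47 ± 0.21 (adjusted p = 0.00329), IL1A 0.89 ± 0.23 (adjusted p = 0.0255) and CXCL2 0.88 ± 0.22 (adjusted p = 0.0244). IL1A was at 5.64 and 6.77 CPM with SBI-477 and 2.82 and 3.85 CPM with DMSO, and CXCL2 at 8.92 and 6.15 CPM with SBI-477 and 4.15 and 4.10 CPM with DMSO. For these 4 genes both SBI-477 libraries lay above both DMSO libraries.

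The other 5 genes did not pass in that subset. CXCL8, at 17.3 and 14.3 CPM with SBI-477 and 9.20 and 13.1 CPM with DMSO, had 0.50 ± 0.18 (edgeR adjusted p = 0.0838). CXCL5 had 0.78 ± 0.35 (adjusted p = 0.145), CXCL1 0.49 ± 0.25 (adjusted p = 0.203), CCL20 0.66 ± 0.45 (adjusted p = 0.336) and CXCL16 0.04 ± 0.15 (adjusted p = 0.886). As labelled, with all 6 libraries, these 5 had values of -0.25 ± 0.44 for CXCL8, -0.00 ± 0.55 for CXCL5, -0.19 ± 0.39 for CXCL1, -0.34 ± 0.62 for CCL20 and -0.08 ± 0.16 for CXCL16. The authors' deposited table lists positive drug fold changes for all 9 genes and adjusted p-values under 0.05 for 7. In the authors' deposited table CXCL3 has a log2 fold change of 1.78 and IL1B of 1.60, and the genes without such a p are CCL20 (1.23, adjusted p = 0.0890) and CXCL16 (0.13, adjusted p = 0.604).

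**Figure D5:**
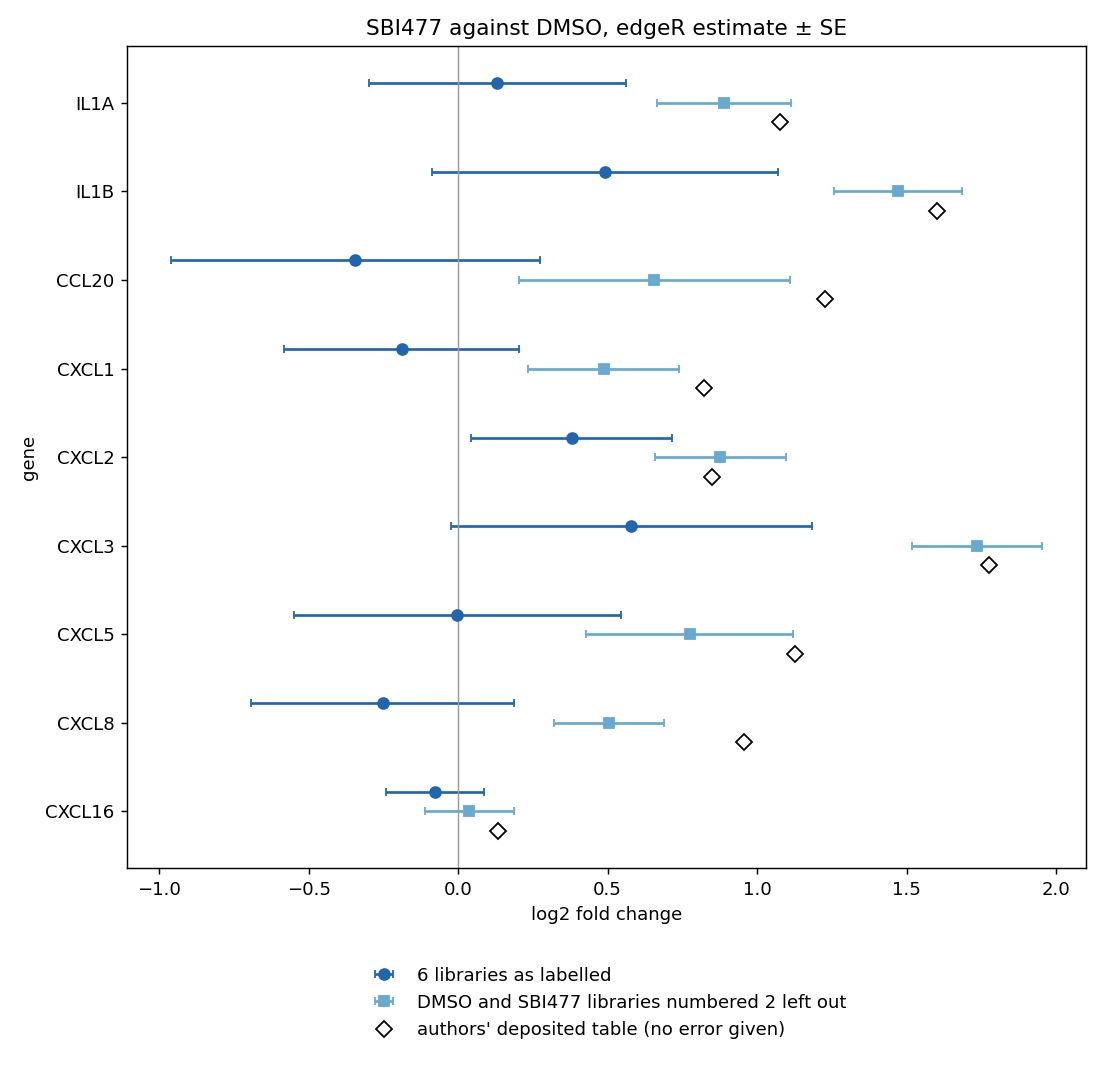
Log2 fold change of SBI-477 against DMSO for each gene: 6 libraries as labelled (circles, with SE), without the SBI-477 and DMSO libraries numbered 2 (squares, with SE) and as given in the authors' deposited table (diamonds, no error). The as-labelled values lie between -0.34 and 0.58, and the other values are all above 0, with CXCL3 farthest right.

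In the subset without the libraries numbered 2, CXCL3 and IL1B had the largest log2 fold changes with SBI-477, and in siMondoA these were CCL20 and IL1A; whether the order differs was not tested. CXCL3 held 38.6% and 42.2% of the summed counts of CXCL1, CXCL2 and CXCL3 in SBI-477 replicates 1 and 3, against 23.1% and 25.1% in DMSO replicates 1 and 3; in the libraries numbered 2 it held 24.9% with SBI-477 and 34.9% with DMSO. The IL1B to IL1A count ratio was 48.0 and 47.9 in SBI-477 replicates 1 and 3 and 27.4 and 35.7 in DMSO replicates 1 and 3, and in the libraries numbered 2 it was 26.2 with SBI-477 and 36.2 with DMSO. Among the 6 stress genes 3 were called lower with SBI-477 in this subset (ATF4, TRIB3 and ASNS, by -0.43, -0.40 and -0.50 on the log2 scale) and none higher. Of the 8 NF-kB feedback genes 1 was called, NFKBIZ, which was lower (-0.78 ± 0.14, edgeR adjusted p = 0.00659). Over all genes tested in this subset, 18.1% were called in either direction.

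The difference between the SBI-477 effect and the siMondoA effect was tested as an interaction term over all 15 libraries. edgeR called 5 of the 9 genes, all with a smaller log2 change under SBI-477, where 7.67% of all genes were called and 3.83% in that direction. The differences were -6.96 ± 1.40 for CCL20 (adjusted p = 0.0114), -5.16 ± 1.06 for IL1A (adjusted p = 0.0124), -4.02 ± 1.02 for CXCL8 (adjusted p = 0.0289), -3.98 ± 1.13 for CXCL5 (adjusted p = 0.0451) and -2.06 ± 0.55 for CXCL1 (adjusted p = 0.0335). In siControl CCL20 rests on 5, 3 and 3 reads, and siMondoA is the group where it is high. IL1B (-3.28, adjusted p = 0.0573), CXCL2 (-2.32, adjusted p = 0.0666), CXCL3 (-3.18, adjusted p = 0.0900) and CXCL16 (-0.27, adjusted p = 0.467) did not pass. Without the drug libraries numbered 2, IL1A (-4.40 ± 1.18, adjusted p = 0.0344) and CCL20 (-5.98 ± 1.64, adjusted p = 0.0365) remained called and the other 3 were not, with 11.5% of all genes called. The count was 2 without siMondoA replicate 2 or 3, siControl replicate 1 or 3, or SBI-477 replicate 2 or 3. It was 3 without DMSO replicate 2 or SBI-477 replicate 1, and it was 8 without siMLX replicate 2. The share of all genes called in these fits is not given, so the counts do not tell whether these genes or all genes moved. The experiment and the kind of perturbation cannot be told apart in this difference.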

How the data were processed

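RNA-seq libraries of PSN-1 cells were grouped by their titles. Per the labels' protocols, paired reads of 25 bases were sequenced on an Illumina HiSeq instrument. The submitters' processing notes name HTSeq 0.6.1, TopHat2 2.1.0, bcl2fastq 1.8.4 and edgeR as tools, with hg38 and mm10 as builds. Strand handling is not stated there. The authors deposited raw counts for 26485 gene symbols in 1 table per experiment, and, per the file headers, their own log2 fold changes and p-values. The deposited log2 and p-value columns were used only where named.

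From the counts, edgeR 4.0.16 (R 4.3.3, limma 3.58.1) was run with filterByExpr, TMM factors and the quasi-likelihood test, without a replicate term: the 9 siRNA libraries in 1 fit, the 6 drug libraries in another and all 15 for the interaction. Adjusted p-values are Benjamini-Hochberg values over all genes tested, threshold 0.05, and SE is the log2 fold change over the root of the test statistic. CPM use TMM factors, and log2 CPM a prior count of 2. All 9 genes passed the filter in these 3 fits; CCL20 did not where siMLX and siControl were fitted alone. Drug labels were checked with DESeq2 1.42.0 with a replicate term, over genes with a mean count above 20. A count of 0 allows up to 3 reads, 0.195 to 0.266 CPM in siRNA and 0.0946 to 0.133 CPM in drug libraries, covering counting error only. Tests were tried on simulated data. Counts of any 2 libraries of a group differed by at least 8.37 in chi-square per degree of freedom, so no library was counted as a copy of another.

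Positions, exon lengths and 25-base words come from GENCODE v29, both strands; promoters come from RefSeq. Same-numbered libraries deviated together, over genes, in all 3 pairs for siMLX with siControl. For siMondoA with siControl the correlations were weak (r = 0.14, 0.09 and 0.01). For siMondoA with siMLX they were mixed (0.53, 0.45 and -0.11), and for SBI-477 with DMSO negative (-0.24, -0.56 and -0.45). All 9 genes are named in every comparison. Other genes are up to 4 per list with the smallest adjusted p among those called, and the 3 nearest in course to CCL20, IL1A and CXCL8. Chosen after values were seen were CXCL6, CCL2, CCL26, IL1RN, CXCR1, CXCR2, CXCR6, CCR6, NFKBIZ, RELB and the stress genes named in the drug subset. The members, lists and motifs were chosen with earlier results of these data known. Leaving out libraries for the related lists was added after the values were seen.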

Additional observations from a re-analysis of the deposited data

Results flagged for a closer look

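Of the 9 genes, 5 were called by the interaction term of the SBI-477 and siMondoA effects (edgeR, 15 libraries). Over all genes tested, 7.67% were called and 3.83% were called lower. In this term the experiment and the kind of perturbation cannot be told apart. The SBI-477 effect minus the siMondoA effect was -6.96 for CCL20, -5.16 for IL1A, -4.02 for CXCL8, -3.98 for CXCL5 and -2.06 for CXCL1, on the log2 scale. IL1A and CCL20 were called in each of the 15 fits that left out 1 library, with adjusted p-values up to 0.0375 and 0.0350. In siControl CCL20 rests on 5, 3 and 3 reads, and siMondoA is the group where it is high. CXCL8 and CXCL1 were each lost in 7 of those fits and CXCL5 in 11. Without the drug libraries numbered 2, CXCL1 (-1.39 ± 0.53, edgeR adjusted p = 0.101), CXCL5 (-3.20 ± 1.26, adjusted p = 0.109) and CXCL8 (-3.26 ± 1.12, adjusted p = 0.0744) were not called. The part of the drug labels in these differences was not tested.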

How the results depend on the processing

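In siMondoA against siControl the 8 calls held with DESeq2 size factors, without a low-count filter, with the replicate block, with only the 6 libraries compared and with each library left out (8 to 8); the DESeq2 Wald test called 7 and gave no p for IL1A. Other counts moved. For siMLX 5 were called without the filter. With the replicate block 5 were called, beside 14% of all genes, against 8.41% of all genes in the main fit. With only the 6 libraries 2 were called (CXCL3 was lost and CCL20 did not pass the filter). With 1 library left out 0 to 4 were called, the 0 without siMLX replicate 2 or any siControl library. For siMondoA against siMLX 5 were called without the filter, 6 with the replicate block, 0 with only the 6 libraries and 0 to 8 with 1 library left out. For SBI-477 0 to 0 were called with 1 library left out and 4 without the libraries numbered 2, beside 18.1% of all genes. For the interaction 8 were called without the filter and 2 to 8 with 1 library left out. Without the drug libraries numbered 2 it was 2, beside 11.5% of all genes. Without the libraries numbered 2, the SBI-477 log2 fold changes of CCL20 (0.66), CXCL1 (0.49), CXCL5 (0.78), CXCL8 (0.50) and CXCL16 (0.0376) turned positive, as did CXCL5 without the filter (0.0051). With 1 drug library left out they ran from -1.10 to 0.26 for CCL20, -0.58 to 0.24 for CXCL1, -0.17 to 0.0334 for CXCL16, -0.39 to 0.40 for CXCL5, -0.57 to 0.15 for CXCL8 and -0.14 to 0.58 for IL1A; CXCL8 in siMLX ran from -0.32 to 2.00. The cause of these shifts was not tested. Where 2 libraries are left in a group, the fit assumes that they vary like the others. The replicate block changed no call in siMondoA against siControl or in the drug comparisons. In siMondoA against siMLX it added IL1A, CXCL5 and CXCL8. Same-numbered libraries of these groups deviated together for replicates 1 and 2 (r = 0.53 and 0.45) but not for replicate 3 (r = -0.11). Depth limits CCL20 in siControl, at 3 to 5 reads a library.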

Other observations

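Without siMLX replicate 2, genes of the pathway lists were called in both directions after MLX depletion, where 6.27% of all genes were called. Replicates 1 and 3 had IRAK2, a kinase of the IL-1 receptor complex (-1.19 ± 0.21, edgeR adjusted p = 0.0114), and NFKB1 (-0.65 ± 0.14, adjusted p = 0.0249) lower than siControl, and of the 6 stress genes SESN2 was lower (-0.93 ± 0.24, adjusted p = 0.0428). These 3 and HNRNPD, which was higher (0.43 ± 0.10, adjusted p = 0.0308), were not called with all libraries. BIRC3 was lower (-1.33 ± 0.30, adjusted p = 0.0284), and IL1RAP (1.08), PELI1 (0.71), CCL26 (1.56) and ZFP36 (0.98) were higher on the log2 scale, and these 5 were called with all libraries too. Against these 2 libraries, siMondoA had 7 of 8 NF-kB feedback genes and all 6 stress genes called higher, where 22.5% of all genes were called in either direction. TNFAIP3 was 2.50 ± 0.25 (adjusted p = 0.000246) on the log2 scale. These genes were chosen after their values were seen.

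In the drug libraries without those numbered 2, CCL2 (-1.08 ± 0.20, edgeR adjusted p = 0.00793) and CCL26 (-0.80 ± 0.15, adjusted p = 0.00831) were lower with SBI-477, the opposite direction to IL1A, IL1B, CXCL2 and CXCL3. The IL33 receptor gene IL1RL1 was also lower there (-0.91 ± 0.15, adjusted p = 0.00571), and was higher in siMondoA. The siRNA and drug experiments do not share control libraries, and these genes too were picked once their values were known.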
